A study of Oryctolagus cuniculus with 6 samples.

Results

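The genes described here make reactive oxygen or nitrogen species: CYBB and NCF4 of the phagocyte NADPH oxidase, the epithelial dual oxidases DUOX1 and DUOX2, the dual oxidase maturation factor DUOXA2, and NOS2, the inducible nitric oxide synthase. They were chosen by gene symbol and not by a cut on their measured values, but with earlier results of these data known. The 6 symbols matched 7 of the 29587 rows of the gene table, because 2 rows carry the symbol CYBB, and all 7 rows passed the filter on low counts that left 13724 genes for testing.

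Poly(A) RNA of tracheal mucosa from New Zealand rabbits aged 3 months was sequenced in 3 libraries of a high cuff pressure group and 3 libraries of a control group. For high cuff pressure a tracheal tube of 3.0 mm was placed to a depth of 13 cm and its inflatable cuff was kept at 35 cmH2O for 2 h. How the control animals were handled, and when tissue was taken, is not stated. No genotype beyond the strain is given, and nothing says outright that each library came from a separate animal, so p-values reflect only how these libraries varied, which may be technical.

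An NADPH oxidase moves electrons from NADPH across a membrane onto oxygen. In neutrophils and macrophages the catalytic protein, encoded by CYBB, sits in the membrane with its partner CYBA and is switched on by cytosolic subunits, NCF1 and NCF4 among their genes, together with a small GTPase, RAC1 or RAC2; it serves microbial killing. In the airway surface epithelium the dual oxidases release hydrogen peroxide into the airway lumen, each needs a maturation factor (DUOXA1 for DUOX1, DUOXA2 for DUOX2) to leave the endoplasmic reticulum, and NOS2 makes nitric oxide from arginine.

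Total counts ran from 10501734 to 14415754 per library, so that 3 counts correspond to 0.208 to 0.286 CPM, the usual scaling of counts to library size. The labels call the material epithelial cells. The epithelial marker EPCAM was present at 124 to 213 CPM, but every library also held transcripts of smooth muscle (ACTA2, 201 to 3142 CPM) and of the cartilage gene MATN1 (21.0 to 89.3 CPM). The other cartilage genes, ACAN (0.364 to 6.59 CPM) and COL2A1 (0.296 to 0.684 CPM), did not pass the filter. High cuff pressure replicate 1 stood apart: it lay at 68.9 on the second principal component (19.7% of the variance) against -43.1 to 10.9 for the other 5 libraries, and its summed smooth muscle markers reached 384 CPM against 3080 to 7345 CPM elsewhere. Results that rest on this library are given with and without it.

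No gene of the 7 rows passed an adjusted p of 0.05 in edgeR's quasi-likelihood test of high cuff pressure against control. NCF4 and DUOX1 had higher levels in every high cuff pressure library than in any control, with log2 fold changes of 1.58 and 1.76, while NOS2 and the CYBB row described as the cytochrome b-245 beta chain had lower levels in every high cuff pressure library. For DUOX2, DUOXA2 and the other CYBB row the groups overlapped. Of all genes tested, 3.67% passed as higher and 1.62% as lower (503 and 222 genes); with counts scaled by library totals alone these were 389 and 1241 genes. At an unadjusted p under 0.05 there were 3 of the 7 rows, where 29.3% of all genes were found. Groups without overlap were seen in 2 rows upward and 2 rows downward, against 18.6% and 18.7% of all genes. DESeq2 called NCF4 and DUOX1 higher (10.7% of its genes with an adjusted p were called higher and 8.55% lower), and limma-voom called none of the 7 (3.79% higher and 2.21% lower over all genes). In the authors' deposited table NCF4 (q = 0.0325) and DUOX1 (q = 0.0232) are marked as up and no member as down, in a table that marks 3.97% of its genes up and 3.67% down. The median log2 fold change of the 7 rows was 1.02, against -0.01 over all genes tested. That median was the value of DUOX2 and rested on high cuff pressure replicate 1. Without that library DUOX2 was at -0.33, DUOXA2 at -1.83 and the CYBB row ENSOCUG00000032490 at -0.057.

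**Figure D1:**
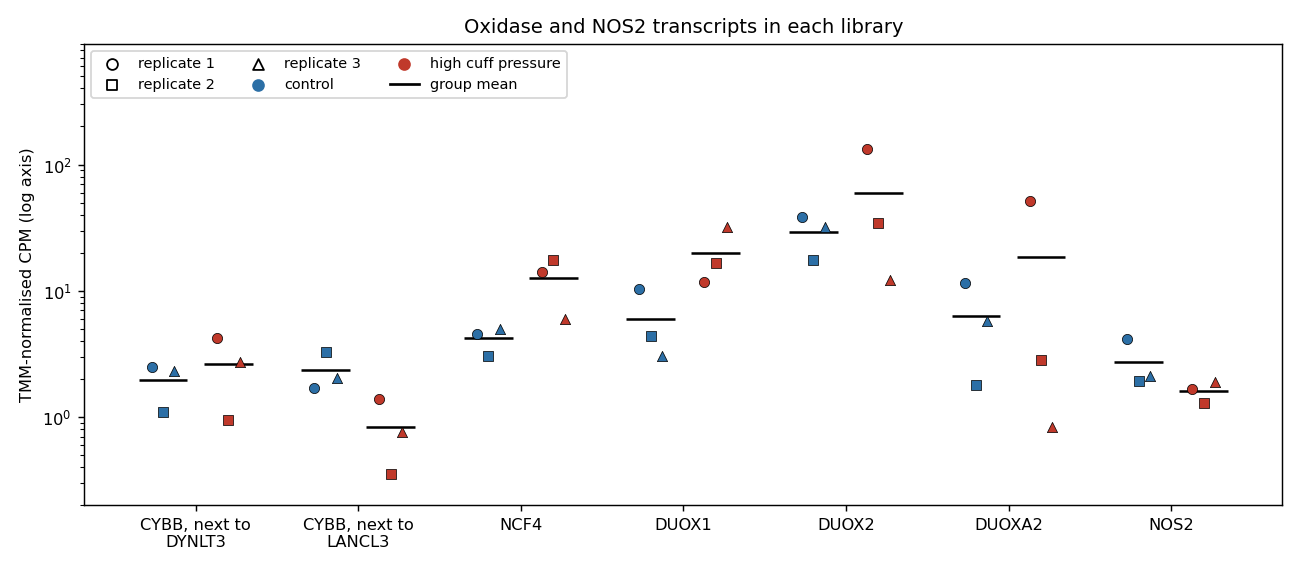
TMM-normalised CPM (log axis) of the 7 member rows in each of the 6 libraries; colour gives the group, the symbol the replicate, and the black bar the group mean. NCF4 and DUOX1 lie higher in all high cuff pressure libraries, NOS2 and the CYBB row next to LANCL3 lie lower, and high cuff pressure replicate 1 lies above the other libraries for DUOX2 and DUOXA2.

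The levels differed widely between these genes when scaled to transcript length. Averaged over the 6 libraries, FPKM (fragments per kilobase of gene model, scaled to library size) was 11.2 for DUOXA2, 7.01 for DUOX2, 6.02 for NCF4, 2.18 for DUOX1, 0.677 for the CYBB row next to DYNLT3 and 0.605 for NOS2, with the CYBB row next to LANCL3 between DUOX1 and the other CYBB row. The order at the top rested on high cuff pressure replicate 1: averaged over the other 5 libraries, FPKM was 5.29 for NCF4, 4.60 for DUOXA2, 4.54 for DUOX2 and 2.23 for DUOX1. The order at the bottom changed as well, to 0.645 for NOS2 and 0.589 for the CYBB row next to DYNLT3. DUOXA2, DUOX2 and NCF4, the 3 highest, did not differ beyond the spread of DUOXA2, whose FPKM was 15.7 ± 24.7 (SD, n = 3) under high cuff pressure and 6.69 ± 4.64 (SD, n = 3) in controls. The last pair in the order, the CYBB row next to DYNLT3 and NOS2, also overlapped.

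Of the phagocyte oxidase, NCF4 was the member that stood higher under high cuff pressure. NCF4 (ENSOCUG00000021337; chromosome 4, 85024948 to 85038594, minus strand; positions are those of the deposited table, and the sources used here name no genome build) encodes a cytosolic regulatory subunit that binds membrane lipid. It had 142, 150 and 79 counts in high cuff pressure replicates 1, 2 and 3, and 53, 47 and 69 counts in control replicates 1, 2 and 3. Scaled to library size these are 14.0, 17.7 and 5.99 CPM against 4.53, 3.02 and 5.03 CPM. High cuff pressure replicate 3 lay close above the highest control, and the other 2 libraries of its group lay well above. The means were 12.5 ± 5.97 and 4.19 ± 1.04 CPM (SD, n = 3 each), and the log2 fold change was 1.58 (SE 0.45, edgeR adjusted p = 0.076). Under DESeq2 the adjusted p was 0.012.

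CYBB, the catalytic subunit, gave no single answer because its symbol is attached to a pair of neighbouring rows on the plus strand of chromosome X. The row ENSOCUG00000032490 (23358936 to 23394472) lies next to DYNLT3, which is where the RefSeq gene order of the rabbit assembly mOryCun1.1 also places CYBB (LANCL3, XK, CYBB, DYNLT3). The row ENSOCUG00000006566 (23257708 to 23311806) carries the description of the cytochrome b-245 beta chain but lies next to LANCL3, where RefSeq has XK, and 0 rows of the gene table are named XK. Whether the latter row measures CYBB could not be settled without sequence, so the rows are given apart.

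The CYBB row next to DYNLT3 had 43, 8 and 36 counts under high cuff pressure and 29, 17 and 32 counts in controls. The levels were 4.24, 0.941 and 2.73 CPM against 2.48, 1.09 and 2.33 CPM, so the groups overlapped, with high cuff pressure replicate 2 the lowest library of all. This gave a log2 fold change of 0.44 (SE 0.59, adjusted p = 0.65), and -0.057 without high cuff pressure replicate 1.

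The CYBB row next to LANCL3 had 14, 3 and 10 counts under high cuff pressure and 20, 51 and 28 counts in controls, or 1.38, 0.353 and 0.758 CPM against 1.71, 3.28 and 2.04 CPM. All 3 high cuff pressure libraries were below all 3 controls. The means were 0.830 ± 0.517 and 2.34 ± 0.829 CPM (SD, n = 3 each), with a log2 fold change of -1.48 (SE 0.56, edgeR adjusted p = 0.13). These 2 rows thus had fold changes of opposite sign, and with their counts added together the log2 fold change was -0.31.

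The other genes of the phagocyte oxidase, together with its regulators, were taken from a list of 11 symbols, of which 10 had a row. With CYBB counted by its 2 rows, 11 rows were tested. CYBC1, the chaperone that lets the CYBB protein mature, was the only row of the 11 to pass the edgeR test. Its levels were 101, 161 and 106 CPM under high cuff pressure and 54.2, 52.7 and 56.2 CPM in controls, a log2 fold change of 1.18 (SE 0.24, adjusted p = 0.039). The controls varied little and the lowest high cuff pressure library lay well above them. This call was lost under 10 of 17 alternatives: when high cuff pressure replicate 2 or 3, or any 1 of the controls, was left out, with the replicate block (adjusted p = 0.12), with library totals alone (log2 fold change 0.76, adjusted p = 0.062) and in the 3 FPKM fits (0.73 to 0.75). The adjusted p was at most 0.16 over the 17.

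NCF1, the organiser subunit, had 6.70, 7.77 and 1.89 CPM under high cuff pressure against 2.22, 1.03 and 2.26 CPM in controls, and high cuff pressure replicate 3 lay below 2 controls (log2 fold change 1.56, SE 0.60, adjusted p = 0.13). RAC2, the GTPase of blood cells, overlapped between groups at 254, 166 and 77.6 CPM against 145, 111 and 161 CPM (log2 fold change 0.25, SE 0.40, adjusted p = 0.71). The RAC2 value was -0.15 when counts were scaled by library totals alone and -0.19 without high cuff pressure replicate 1. Of the 11 rows, 1 was called higher and 0 lower by edgeR, and the median log2 fold change was 0.52. An unadjusted p under 0.05 was found for 7 rows (6 higher, 1 lower), where 29.3% of all genes tested had one. The same share stands beside the list counts given below. The 6 higher rows included the regulators RAC1, VAV1 and ARHGDIB, and the median was the value of RAC1. DESeq2 called 4 higher and 0 lower, and limma-voom 1 higher and 0 lower. CYBA was not analysed here.

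Transcripts of the blood cells that carry this oxidase differed between the groups as well. Of 6 tested neutrophil markers 5 rose (CSF3R, CXCR1, FPR1, S100A8 and S100A12), and their summed level, with S100A9 and MPO, was 1481 to 6790 CPM under high cuff pressure against 6.82 to 422 CPM in controls. MPO, the granule peroxidase made by neutrophil precursors, had 0 counts in every high cuff pressure library and 1 count in the controls. CSF3R, the receptor for granulocyte colony-stimulating factor, was at 236, 89.3 and 34.9 CPM against 1.11, 0.772 and 0.437 CPM (log2 fold change 7.28, SE 0.84, adjusted p = 0.016). Of 9 monocyte and macrophage markers 4 rose (CD68, CD14, CSF1R and MARCO), none of the 9 was at 0 in all libraries, and their sum was 205 to 224 CPM against 62.5 to 128 CPM. The complement genes C1QA, C1QB and C1QC of the same list had log2 fold changes of -1.05, -0.93 and -0.80 and did not pass. CSF1R kept its call under 7 of 17 alternatives and lost it, for example, with library totals (adjusted p = 0.054) and the replicate block (adjusted p = 0.13). All 9 marker calls of both lists were lost without high cuff pressure replicate 2, control replicate 2 or control replicate 3. CD68 was at 76.0, 86.5 and 86.7 CPM against 25.4, 26.0 and 26.0 CPM (log2 fold change 1.69, SE 0.19, adjusted p = 0.016).

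The part of these cells in the NCF4, NCF1 and CYBC1 values was not tested, and in bulk tissue fewer or more cells of a type and less or more RNA per cell cannot be told apart. The 3 oxidase subunits CYBB (next to DYNLT3), NCF1 and NCF4 had log2 fold changes of 0.44 to 1.58, the 6 neutrophil markers of 3.99 to 7.28, and the 9 monocyte and macrophage markers of -1.05 to 3.85, with CSF1R at 1.61 and CD68 at 1.69. By level, NCF4 ranked the high cuff pressure libraries 2, 1, 3, as did the neutrophil marker FPR1 (18.4, 24.8 and 4.24 CPM). All other tested neutrophil markers (CSF3R, CXCR1, S100A8, S100A9 and S100A12) ranked them 1, 2, 3.

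**Figure D2:**
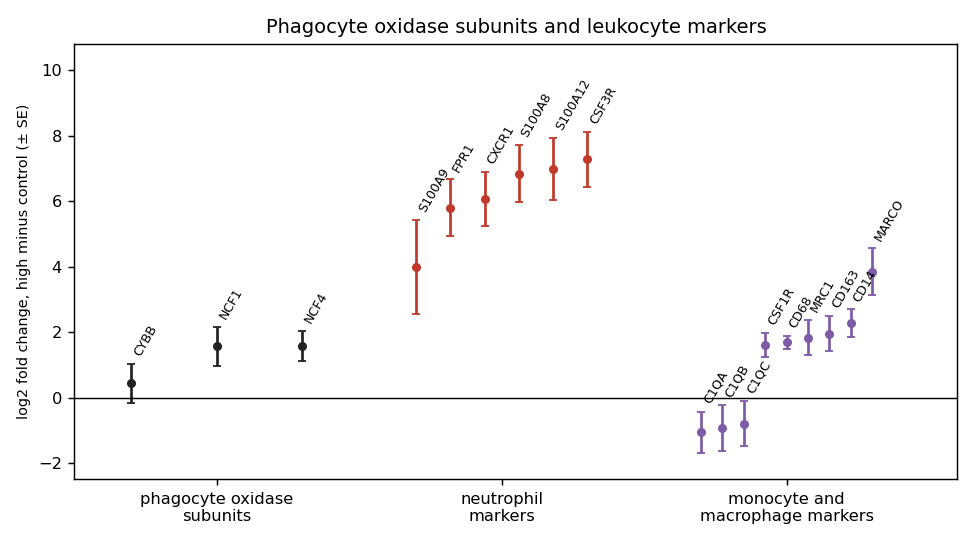
Log2 fold change (high cuff pressure minus control, with SE) of 3 phagocyte oxidase subunits, 6 neutrophil markers and 9 monocyte and macrophage markers; CYBB is the row next to DYNLT3. The subunits lie between 0.44 and 1.58, the neutrophil markers between 3.99 and 7.28, and the macrophage markers on both sides of 0.

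Among the epithelial enzymes, DUOX1 was higher in each high cuff pressure library than in any control, whereas DUOX2 was not. The 2 dual oxidases and their maturation factors form a single cluster on chromosome 17 of the deposited annotation. From left to right it holds DUOX1 (ENSOCUG00000014307; 27375380 to 27407602, minus strand), DUOXA1 (ENSOCUG00000014298; 27408647 to 27421597, plus strand), DUOXA2 (ENSOCUG00000014290; 27421599 to 27424623, minus strand) and DUOX2 (ENSOCUG00000014255; 27425688 to 27443558, plus strand). Each oxidase stands head to head with its own maturation factor, with 1044 bases between the DUOX1 and DUOXA1 gene models and 1064 bases between those of DUOXA2 and DUOX2. The maturation factors meet tail to tail with 1 base between their models. Whether counting used the strand is not known, so reads near that shared end cannot be assigned with certainty, and the same holds for the DUOX1 end that faces SHF at a distance of 1378 bases. RefSeq lists the genes in the reverse order by position: DUOX2, DUOXA2, DUOXA1, DUOX1.

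DUOX1 had 120, 140 and 420 counts under high cuff pressure and 122, 68 and 42 counts in controls. The levels were 11.8, 16.5 and 31.8 CPM against 10.4, 4.38 and 3.06 CPM. High cuff pressure replicate 1 lay just above control replicate 1, so the groups were separate by a narrow margin. The means were 20.0 ± 10.5 and 5.95 ± 3.93 CPM (SD, n = 3 each), with a log2 fold change of 1.76 (SE 0.55, edgeR adjusted p = 0.090). DESeq2 gave an adjusted p of 0.014. With high cuff pressure replicate 1 left out, DUOX1 passed the threshold (log2 fold change 2.03, edgeR adjusted p = 0.046).

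DUOXA1, the maturation factor of DUOX1, had 5.52, 11.3 and 14.2 CPM under high cuff pressure against 4.61, 1.87 and 0.656 CPM in controls (log2 fold change 2.13, SE 0.68, adjusted p = 0.093). Its libraries stood in the same order as those of DUOX1, from high cuff pressure replicate 3 down to control replicate 3. KRT5, the keratin of airway basal cells, stood in that order too, at 387, 945 and 2374 CPM against 327, 259 and 124 CPM (log2 fold change 2.38, SE 0.67, adjusted p = 0.073). The KRT5 row spans 36508086 to 36751484 on chromosome 4. Whether that row takes in reads of other genes was not tested. The other genes of the epithelial list did not share that order. TP63, also a basal cell gene, was at 32.7, 17.8 and 57.0 CPM against 28.7, 49.4 and 27.0 CPM (log2 fold change 0.034). EPCAM and CDH1 had log2 fold changes of -0.34 and -0.11. KRT8, in contrast, was higher in every high cuff pressure library than in any control. It stood at 803, 1088 and 915 CPM under high cuff pressure and at 485, 495 and 542 CPM in controls. With a log2 fold change of 0.88, KRT8 missed the edgeR threshold (adjusted p = 0.075). The epithelial marker list as a whole summed to 1573 to 3761 CPM under high cuff pressure and 1078 to 1255 CPM in controls, a sum to which KRT5 gave 2374 of 3761 CPM in high cuff pressure replicate 3, with 0 of its 5 tested genes past the edgeR threshold in either direction, 2 at an unadjusted p under 0.05, 2 called higher by DESeq2 and 0 called by limma-voom. No epithelial marker was at 0. The part of the epithelial cell make-up in the DUOX1 values was not tested.

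DUOX2 had 1336, 293 and 160 counts under high cuff pressure and 446, 271 and 443 counts in controls. At 132, 34.5 and 12.1 CPM against 38.1, 17.4 and 32.3 CPM, the high cuff pressure group held the highest and the lowest library of all 6. Its mean of 59.4 ± 63.6 CPM had a standard deviation larger than itself, beside 29.3 ± 10.7 CPM in controls (SD, n = 3 each). The log2 fold change of 1.02 (SE 0.76, adjusted p = 0.39) became -0.33 without high cuff pressure replicate 1.

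DUOXA2, the maturation factor of DUOX2, varied more. Its counts were 525, 24 and 11 under high cuff pressure and 135, 28 and 79 in controls, or 51.8, 2.82 and 0.833 CPM against 11.5, 1.80 and 5.76 CPM. The ratio of the highest library to the lowest was 62.1 for DUOXA2, 10.9 for DUOX2, 10.4 for DUOX1 and 5.84 for NCF4. The log2 fold change of DUOXA2 was 1.54 (SE 1.31, adjusted p = 0.46), and -1.83 without high cuff pressure replicate 1. On the FPKM scale, as log2(FPKM + 1), it was -0.075, and with limma-voom it was 0.0016. For DUOX2 and DUOXA2 the direction therefore rested on a single library.

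**Figure D3:**
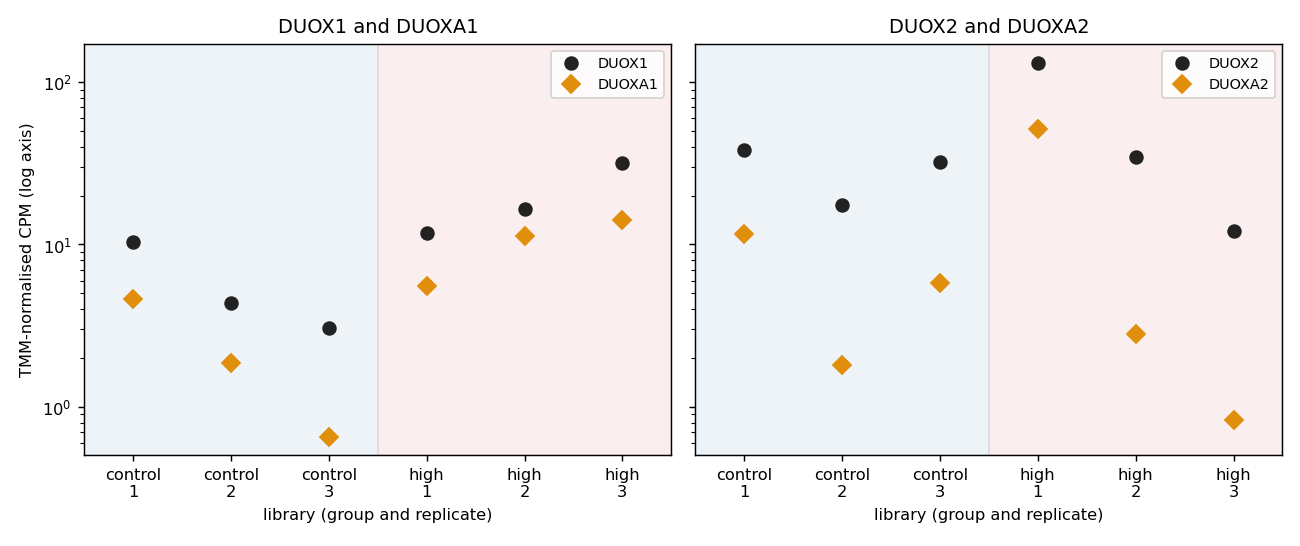
TMM-normalised CPM (log axis) in each library of the oxidase DUOX1 with its maturation factor DUOXA1 (left) and of DUOX2 with DUOXA2 (right); blue shading marks control and red shading high cuff pressure libraries. DUOX1 and DUOXA1 are highest in high cuff pressure replicate 3, while DUOX2 and DUOXA2 are highest in replicate 1 and lowest or second lowest in control replicate 2 and high cuff pressure replicate 3.

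Each dual oxidase was thus closer in its profile to its own maturation factor than to the other dual oxidase. Likeness was measured as the root mean square difference of log2 CPM over the 6 libraries after each gene was centred on its own mean, so that 0 is an identical profile. It was 0.42 between DUOX1 and DUOXA1 and 0.88 between DUOX2 and DUOXA2, against 1.62 between DUOX1 and DUOX2. Among 10983 named genes, DUOXA1 ranked 27 in likeness to DUOX1, and DUOX2 ranked 9266. In likeness to DUOX2, DUOXA2 ranked 542 and DUOX1 ranked 9984, so many genes were closer to DUOX2 than its maturation factor was. Seen from the maturation factors, DUOX1 ranked 5 for DUOXA1 and DUOX2 ranked 2 for DUOXA2. Without high cuff pressure replicate 1 the difference was 0.46 between DUOX1 and DUOXA1, 0.72 between DUOX2 and DUOXA2, and 1.55 between DUOX1 and DUOX2. Genes beyond the cluster's ends were closer still to each oxidase than its maturation factor, with 0.34 between DUOX1 and SHF (rank 9) and 0.75 between DUOX2 and SORD (rank 137). No value without high cuff pressure replicate 1 was taken for these neighbours. These values describe 6 libraries and carry no test.

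The balance between the 2 dual oxidases differed from library to library. Per length, the log2 ratio of DUOX2 to DUOX1 was 3.34, 0.94 and -1.52 under high cuff pressure and 1.74, 1.86 and 3.26 in controls. DUOX2 was the more abundant in 5 of 6 libraries, and DUOX1 in high cuff pressure replicate 3. The mean difference of -1.36 between the groups was not larger than the spread (exact permutation test, two-sided p = 0.5, adjusted over 3 ratios 0.75), in a design of 3 against 3 that cannot go below p = 0.1. It was -2.58 with high cuff pressure replicate 1 left out (exact permutation test, unadjusted p = 0.1, the smallest possible) and -0.14 with high cuff pressure replicate 3 left out.

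The phagocyte oxidase was set against the epithelial enzymes in the same way, with the CYBB row next to DYNLT3. The log2 ratio of CYBB to DUOX1 was -0.75, -3.33 and -2.80 under high cuff pressure and -1.33, -1.25 and 0.33 in controls, a difference of -1.54 (exact permutation test, two-sided p = 0.3, adjusted 0.75). With high cuff pressure replicate 1 left out it was -2.32 (exact permutation test, unadjusted p = 0.1, the smallest the design allows), and it kept its sign without each of the other libraries. CYBB was below DUOX1 in 5 of the 6 libraries. The log2 ratio of CYBB to DUOX2 was -4.09, -4.26 and -1.29 against -3.07, -3.11 and -2.92, a difference of -0.18 (exact permutation test, two-sided p = 1, adjusted 1), and the controls were close together while the high cuff pressure libraries were not. This difference was 0.26 without high cuff pressure replicate 1 and 0.34 without replicate 2. With the CYBB row next to LANCL3 in its place, the difference was -3.38 for CYBB to DUOX1 (exact permutation test, unadjusted p = 0.1, the smallest possible) and -2.02 for CYBB to DUOX2 (exact permutation test, unadjusted p = 0.3), so both ratios depend on which row is taken for CYBB.

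The peroxidases listed with the dual oxidases (LPO, EPX and MPO) were near or at 0. LPO, the lactoperoxidase of airway secretions, had 0 counts in all 6 libraries, EPX of eosinophils had at most 2 counts in a library, and neither was tested. Of the 4 rows of the dual oxidase and peroxidase list that were tested, 0 were called in either direction by edgeR, 2 had an unadjusted p under 0.05 (DUOX1 and DUOXA1), and DESeq2 called those 2 higher while limma-voom called 0. The median log2 fold change of the 4 was 1.65, with DUOX2 and DUOXA2 counted at values that turned negative without high cuff pressure replicate 1. Dual oxidases are also thyroid genes. Summed thyroid markers were at 0.353 to 0.530 CPM under high cuff pressure and 0.643 to 0.684 CPM in controls.

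NOX5, a calcium-activated oxidase without cytosolic subunits, rose. It was at 24.2, 33.4 and 9.77 CPM under high cuff pressure against 4.44, 5.60 and 2.62 CPM in controls, with no overlap (log2 fold change 2.40, SE 0.51, adjusted p = 0.043). NOX5 missed the threshold without high cuff pressure replicate 2 or without any 1 control, where its fitted value was 2.00 to 2.77 over all 6 left-out libraries. It also missed with limma-voom (2.24, adjusted p = 0.054) and with log2(FPKM + 1) without a filter (1.36, adjusted p = 0.090). NOX1, an oxidase of mucosal epithelium, was present at 225, 71.0 and 88.2 CPM against 101, 43.0 and 174 CPM and overlapped (log2 fold change 0.27, SE 0.58, adjusted p = 0.79). The NOX1 value was -0.11 when scaled by library totals and -0.41 without high cuff pressure replicate 1. NOX4 had at most 6 counts in a library and NOX3 had 0 in all; neither was tested.

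NOS2 was low throughout, with its lower values under high cuff pressure. NOS2 (ENSOCUG00000001903; chromosome 19, 20240783 to 20274241, plus strand) had 17, 11 and 25 counts under high cuff pressure and 49, 30 and 29 counts in controls. The levels were 1.68, 1.29 and 1.89 CPM against 4.19, 1.93 and 2.11 CPM. All 3 high cuff pressure libraries were below the lowest control, but replicate 3 only just. The means were 1.62 ± 0.303 and 2.74 ± 1.25 CPM (SD, n = 3 each), and the log2 fold change was -0.74 (SE 0.45, edgeR adjusted p = 0.31). Without control replicate 1, the library with the highest level, it was -0.30.

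NOS3, the endothelial nitric oxide synthase, rose. Its levels were 10.7, 40.4 and 23.3 CPM under high cuff pressure against 6.75, 2.57 and 2.62 CPM in controls, with no overlap (log2 fold change 2.64, SE 0.59, adjusted p = 0.047). Leaving out high cuff pressure replicate 2 or 3, or any 1 control, ended the call, at log2 fold changes of 2.11 to 3.25 over all 6 left-out libraries. So did the replicate block (2.63, adjusted p = 0.093) and log2(FPKM + 1) without a filter (1.43, adjusted p = 0.083). NOS1, the neuronal enzyme, had 3 counts in control replicate 1 and 0 elsewhere. Of 9 tested rows of nitric oxide synthases and nitric oxide signalling, 1 was called higher and 0 lower by edgeR, 2 had an unadjusted p under 0.05, and the median log2 fold change was 0.02. DESeq2 called 1 higher and 1 lower, and limma-voom 1 higher and 0 lower.

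ARG1, the arginase that uses the same substrate as NOS2, rose from almost no counts. It had 124, 162 and 113 counts under high cuff pressure and 6, 1 and 0 counts in controls, or 12.2, 19.1 and 8.56 CPM against 0.513, 0.064 and 0 CPM (log2 fold change 6.15, SE 0.87, adjusted p = 0.018). The call was lost without high cuff pressure replicate 2, control replicate 2 or control replicate 3, at log2 fold changes of 5.80, 5.70 and 5.56, with an adjusted p of at most 0.091. ARG2, the mitochondrial arginase, was at 2.66, 1.88 and 3.94 CPM against 1.62, 1.29 and 0.802 CPM, with a log2 fold change of 1.20 (SE 0.47, adjusted p = 0.14). GCH1, which starts the synthesis of the nitric oxide synthase cofactor tetrahydrobiopterin, had a log2 fold change of 1.14 (SE 0.48, adjusted p = 0.16). Of 10 tested genes of arginine and tetrahydrobiopterin supply 1 was called higher and 0 lower by edgeR, 4 had an unadjusted p under 0.05, DESeq2 called 2 higher and 0 lower, and limma-voom 1 higher and 0 lower; the median log2 fold change was 0.64. IRF1, a transcription factor of the interferon response that acts on NOS2, had a log2 fold change of 0.08 (adjusted p = 0.83). The IRF1 value was -0.31 when scaled by library totals and -0.062 with high cuff pressure replicate 1 left out.

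**Figure D4:**
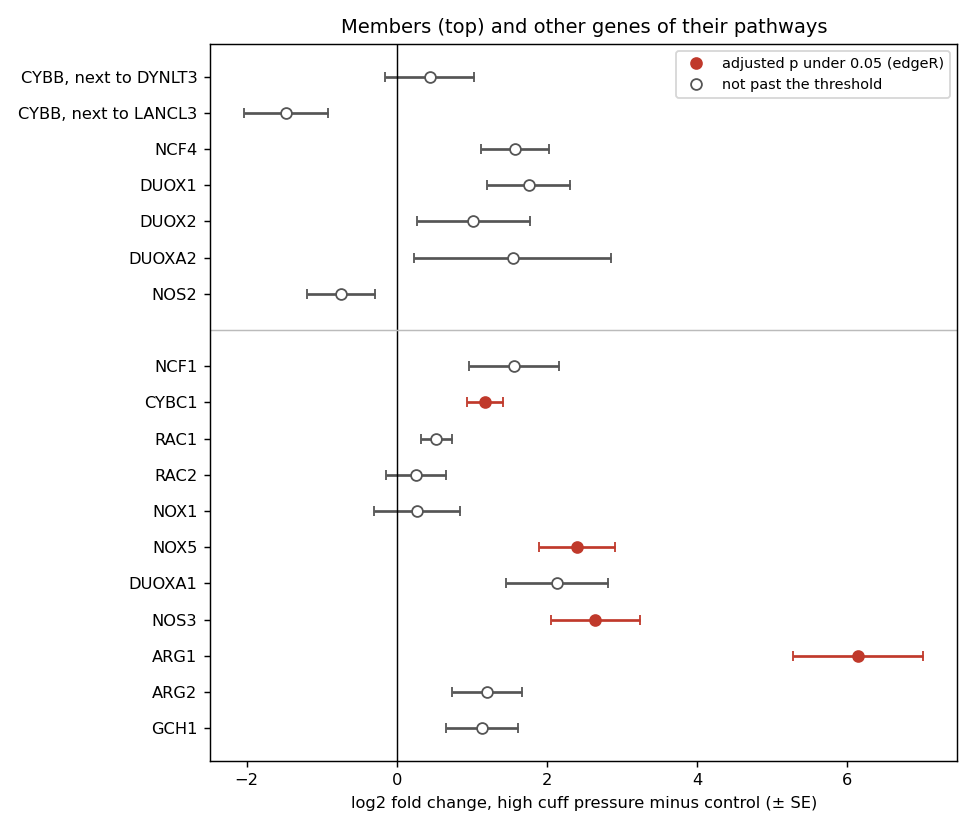
Log2 fold change (high cuff pressure minus control, with SE) of the 7 member rows (top) and 11 other genes of their pathways (below the grey line); filled red points had an adjusted p under 0.05 in edgeR. No member is filled, and CYBC1, NOX5, NOS3 and ARG1 are.

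For each member, the genes with the most similar profile over the 6 libraries were listed by the same likeness measure among 10983 named genes. NCF4 was nearest to SRXN1, which repairs oxidised peroxiredoxins (0.17), then to NFKBIE, an inhibitor of NF-kappaB (0.18), and to NCCRP1 (0.20). DUOX1 was nearest to LTB4R, a receptor for leukotriene B4 (0.13), CD44, a hyaluronan receptor (0.24), and TUBA4A, an alpha tubulin (0.25). NOS2 was nearest to RHOB, a small GTPase (0.16), STK39 (0.16) and TBX21, a transcription factor of T helper cells (0.17).

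The profiles of DUOX2 and DUOXA2 had no such close match. The nearest genes to DUOX2 were NPC1L1 (0.40), SEPT12 (0.41) and CD83 (0.41). DUOXA2 was nearest to CR2 (0.80), a complement receptor, then to DUOX2 (0.88) and ABCA12 (0.89). The CYBB row next to DYNLT3 was nearest to ADAT1 (0.21), FGD2 (0.31) and FUT8 (0.31). The CYBB row next to LANCL3 was nearest to ZBTB41 (0.07), MPP5 (0.11) and PPP1R9A (0.12), and shared none of its 3 nearest genes with the other CYBB row.

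The members differed in how far their values depended on single libraries and on the choice of method. NCF4 and DUOX1 were higher and NOS2 and the CYBB row next to LANCL3 lower under every one of the alternatives run for them. The range over all alternatives was 0.92 to 1.92 for NCF4, 0.90 to 2.44 for DUOX1, -2.01 to -0.96 for the CYBB row next to LANCL3 and -1.09 to -0.30 for NOS2. DUOX2 ran from -0.33 to 1.51 and DUOXA2 from -1.83 to 2.31, and the CYBB row next to DYNLT3 from -0.31 to 0.83.

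**Figure D5:**
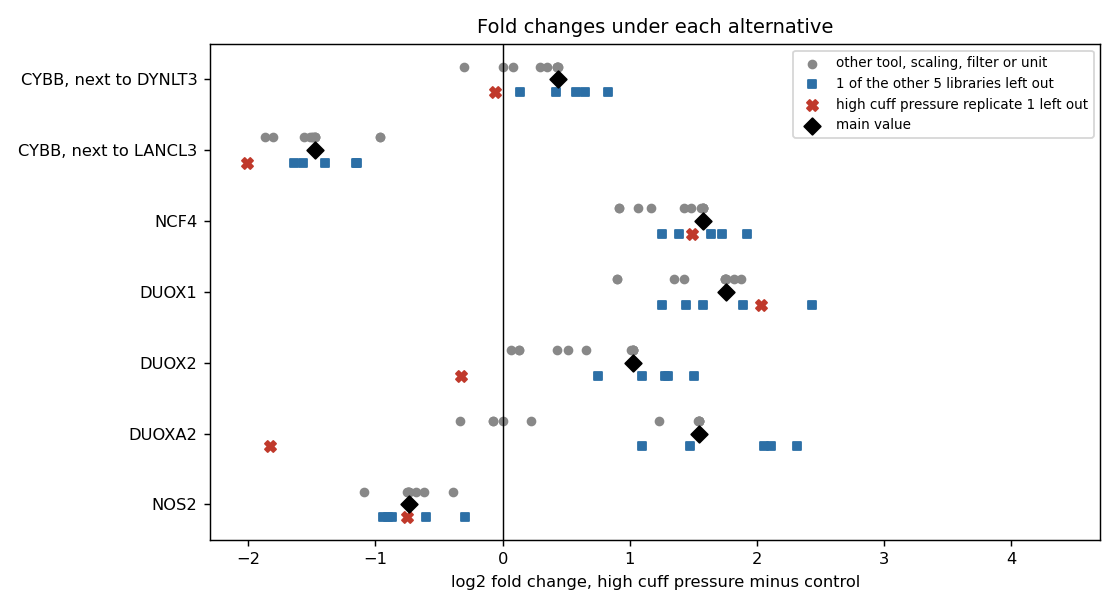
Log2 fold change of the 7 member rows under each alternative: black diamonds give the main value, grey points other tools, scalings, filters or units, blue squares fits that leave out 1 of 5 libraries, and red crosses fits without high cuff pressure replicate 1. The red crosses of DUOX2 (-0.33), DUOXA2 (-1.83) and the CYBB row next to DYNLT3 (-0.057) lie on the other side of 0 from the main value.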

How the data were processed

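Poly(A) RNA of 6 tracheal libraries was sequenced (DNBSEQ-T7, per the labels' protocols), and all libraries carry the same batch label. HISAT2 2.0.4, StringTie 1.3.3b and edgeR appear in the submitters' processing notes, with no role for any of them. The sources used here name no genome build, annotation release, strand setting or counting option. Per the file headers, the authors deposited raw counts and FPKM for each gene. A deposited table of the authors' comparison gives a p-value and q-value per gene.

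Counts were tested with edgeR 4.0.16 in R 4.3.3 (filterByExpr, TMM, robust glmQLFit, glmQLFTest) over 13724 genes; p-values were adjusted by Benjamini-Hochberg and called under 0.05. CPM are TMM-normalised, and log2 CPM use a prior count of 2. The SE was taken from the fold change and the F statistic (change / sqrt F). Ratios within a library use counts per model length with 0.5 added and an exact permutation test. Total counts per library were 10501734 to 14415754. In the text, 3 counts serve as the floor; it covers counting error only. Groups and replicate numbers come from the library names; control replicate 3 has the title S4. Libraries of a group differed beyond sampling noise (chi-square of 56.1 to 137 for each degree of freedom).

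The rule for named genes took all members, each list gene with an adjusted p under 0.05, a set of pathway genes, and the 3 named genes at 1 CPM or more closest to each member in profile. Members and lists were chosen with earlier results of these data known. A few list genes are not reported here. Of 144 list entries 116 had a row, 4 of them through an older symbol or a description. The CYBB row used in ratios was chosen after its values were seen. KRT5, SHF and SORD, which the rule does not name, were likewise chosen afterwards. So were further list genes, among them KRT8, ACAN, COL2A1, NFE2L2 and RAC1. Scripts were tested on simulated data. Alternatives were DESeq2 1.42.0, limma-voom (limma 3.58.1), RLE factors, library totals, other filters, limma-trend on log2(FPKM + 1) or log2(FPKM + 0.1), a block for replicate number, a fit that was not robust, and leaving out each library. Added later were the CYBB rows summed, the other CYBB row in ratios, and mean FPKM and pair likeness without high cuff pressure replicate 1.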

Additional observations from a re-analysis of the deposited data

How the results depend on the processing

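Over all genes, 503 were called higher and 222 lower. DESeq2 called 1461 higher and 1170 lower, the fit with the replicate block 198 and 46, and log2(FPKM + 1) without a filter 127 higher. Scaling by library totals gave 389 higher and 1241 lower. The filtered FPKM fits called 1748 lower with log2(FPKM + 1) and 1448 with log2(FPKM + 0.1). Leaving out 1 library gave 0 to 1362 higher and 0 to 1261 lower: without high cuff pressure replicate 1 there were 1362 and 1261, and without control replicate 2 or 3 there were 0 in edgeR, with 2691 and 2496 genes at an unadjusted p under 0.05. The median log2 fold change of all genes was -0.40 with library totals and -0.35, -0.41 and -0.14 in the FPKM fits, so values there are to be read against that shift. No member's call changed with the block, but those of CYBC1, NOS3, CSF1R and MARCO were lost. Same-numbered libraries did not deviate together (r of -0.28, -0.20 and -0.23), and differently numbered ones had r of -0.14 to 0.33. Deviations were taken from the mean of each small group, which ties these values together. They cannot settle whether the numbers pair the libraries.

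Without 1 library each, the CYBB row next to DYNLT3 ran from -0.057 to 0.83 (rows summed, -0.31), DUOX1 from 1.26 to 2.44, DUOX2 from -0.33 to 1.51, DUOXA2 from -1.83 to 2.31 and the CYBB to DUOX2 ratio from -1.14 to 0.34. DESeq2 gave 1.58 for NCF4 and 1.75 for DUOX1, both past the threshold, as was DUOX1 at 2.03 without high cuff pressure replicate 1. DUOXA2 was -0.075 on log2(FPKM + 1), with or without a filter, and -0.33 on log2(FPKM + 0.1). RAC2 was -0.15 with library totals, -0.28 in all 3 FPKM fits and, over the left-out libraries, -0.19 to 0.60, lowest without high cuff pressure replicate 1. NOX1 was -0.11 with library totals, -0.095, -0.096 and -0.095 in the FPKM fits, -0.41 in the fit lacking high cuff pressure replicate 1 and -0.11 in that lacking control replicate 2. IRF1 was -0.31 with library totals and in the FPKM fits, -0.062 in the fit lacking high cuff pressure replicate 1, -0.022 in that lacking control replicate 2, and at most 0.20 with any library left out. The cause was not tested. NOS2 did not pass the FPKM filter. Counts as low as 3 in the CYBB row next to LANCL3 and 8 in the row next to DYNLT3 limit the precision of both.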

Other observations

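The genes that remove superoxide and peroxide, and the targets of the oxidant-sensing factor NRF2, did not move one way. Of 13 tested removal genes 0 were called in either direction by edgeR, 4 had an unadjusted p under 0.05 (3 higher, 1 lower), DESeq2 called 3 higher and limma-voom 0, and the median log2 fold change was -0.13. GPX1, a glutathione peroxidase, was at 690, 1449 and 1084 CPM under high cuff pressure against 509, 453 and 511 CPM in controls (log2 fold change 1.13, SE 0.33, adjusted p = 0.076). CAT, the catalase, was at 186, 128 and 102 CPM against 203, 239 and 269 CPM (log2 fold change -0.77, SE 0.27, adjusted p = 0.12); its adjusted p passed 0.05 under 4 of 17 alternatives.

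Of 13 tested genes of the NRF2 target list 0 were called by edgeR, 6 had an unadjusted p under 0.05 (3 higher, 3 lower), DESeq2 called 2 higher and 3 lower, limma-voom called 1 lower, and the median was -0.08. The list also counts NFE2L2, the gene of NRF2 itself, and KEAP1, the gene of its inhibitor. NFE2L2 was among the 3 lower (log2 fold change -0.92, SE 0.32, edgeR adjusted p = 0.11). HMOX1, the inducible heme oxygenase, was at 41.5, 35.2 and 30.2 CPM against 29.7, 18.1 and 29.7 CPM (log2 fold change 0.46, SE 0.28, adjusted p = 0.29). Of 7 tested transcription factors reported to act on the oxidase and NOS2 genes 0 were called by edgeR, DESeq2 or limma-voom, 2 had an unadjusted p under 0.05, and the median was 0.09. GPX1 was named after its values were seen.

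Other cell type lists stood as follows. Multiciliated cell markers summed to 373 to 966 CPM under high cuff pressure and 1055 to 1539 CPM in controls, with 0 of 4 called by edgeR, 2 at an unadjusted p under 0.05, 2 called lower by DESeq2 and 1 by limma-voom. Secretory cell markers summed to 1768 to 20660 CPM against 4172 to 21403 CPM, with 0 of 2 called by any of the 3 tools and 0 at an unadjusted p under 0.05. Of 4 smooth muscle markers 0 were called by the 3 tools and 0 had an unadjusted p under 0.05 in edgeR. B cell markers summed to 1.14 to 1.48 CPM against 2.06 to 3.28 CPM. Cartilage markers summed to 59.1 to 90.5 CPM against 21.8 to 47.5 CPM, and most of every sum came from MATN1.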
